A study of Mus musculus with 46 samples.

Results

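The zinc finger genes with symbols Zfp500 to Zfp999 were followed through all 7 count tables of a mouse stem cell series. A gene was a member when its symbol had this form and it held at least 100 counts summed over the 16 libraries of the transcription arrest table. In all, 205 symbols had the form, and 184 of the 21812 genes in that table were members. The members nearest above the limit were Zfp872 with 132 counts and Zfp558 with 140 counts, and the genes nearest below it were Zfp784 with 90 counts and Zfp879 with 85 counts. A minimum of 50 counts would have given 187 members, and a minimum of 500 counts would have given 162.

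Most genes named Zfp encode proteins with tandem C2H2 zinc fingers, small modules in which a pair of cysteines and a pair of histidines hold a zinc ion and the helix between them reads DNA. Many also carry a KRAB box, a short domain near the start of the protein that recruits the corepressor Trim28 (KAP1) and, with it, the H3K9 methyltransferase Setdb1 and heterochromatin proteins. KRAB zinc finger genes lie in clusters of recent duplicates, many silence retroelements, and their messages are known as short lived. N6-methyladenosine (m6A), a mark on messenger RNA, is written by a complex with the catalytic subunit Mettl3 and the scaffold subunit Virma, and the marked messages are on the whole degraded faster. Igf2bp3 is an RNA-binding protein that has been described as a reader of this mark.

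The 46 RNA-seq libraries fell into 19 groups, with 6 libraries in each embryoid group and 2 in every other. EPSC were sequenced untreated, and EPSC (labelled EPS) and EPSC cultured in PrE-induce medium (labelled PrEdiff) were sequenced after 0, 1, 2 and 3 h of actinomycin D, which stops transcription. PrEdiff cells were sorted into CD140+ cells (PrE-E) and CD140- cells (EPI-E), where CD140 denotes PDGF receptors and PrE the primitive endoderm. Embryoids made from EPSC and GBL-1 were separated on day 5 with pronase into an epiblast part (EPI) and a visceral endoderm part (VE). The perturbed cells were all PrEdiff cells: Virma WT and Virma cKO, Mettl3 WT and Mettl3 cKO, and siNC and siIgf2bp3. The labels give no promoter for the deletion, no clone and no source animal. Nothing in them says that replicates came from separate cultures, so p-values measure the spread between these libraries, which may be technical. In bulk libraries, fewer cells of a type and less RNA per cell cannot be told apart.

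Library totals ran from 6854433 to 22280769 counts. Both EPS libraries at 3 h stood apart from the course: the members' summed share of counts was 0.590% and 0.591% at 0 h, 0.241% and 0.243% at 2 h, and 0.327% in both at 3 h, whereas PrEdiff libraries went from 0.222% to 0.230% at 2 h to 0.212% to 0.218% at 3 h. Decay results are therefore given with and without 3 h. The 8 primitive endoderm markers summed to 1.56% to 1.58% of counts in PrE-E and 0.0256% to 0.0263% in EPI-E, and to 1.03% to 1.15% in embryoid VE and 0.0411% to 0.0590% in embryoid EPI, and the epiblast markers were higher in EPI-E (0.133% to 0.134%) than in PrE-E (0.0211% to 0.0225%). Sox17 was at 0 in EPI-E and Fgf4 at 0 in embryoid VE. Of the targeted genes, Virma mRNA was at 107 to 110 CPM (counts scaled to a common library size) in WT and fell to 54.6 to 67.7 in Virma cKO (log2 fold change -0.82 ± 0.12 SE, adjusted p = 1.12e-06). Mettl3 mRNA was 35.2 and 37.4 CPM in WT and 34.9 and 37.1 CPM in the libraries labelled Mettl3 cKO (-0.02 ± 0.11, adjusted p = 0.978). Igf2bp3 mRNA was 98.4 and 113 CPM in siNC and 111 and 117 CPM in the libraries labelled siIgf2bp3 (0.11 ± 0.11, adjusted p = 0.577).

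The members are shown first by the sequence that makes the family. A single finger unit of 84 bases, read from the GENCODE transcript's coding sequence, is given for 4 members that recur below: Zfp534 and Zfp988, neighbours on chromosome 4, and Zfp599 and Zfp786, which had the lowest slopes over 0 to 3 h of transcription arrest in EPS. Capitals mark the codons of the zinc-binding cysteines (TGT) and histidines (CAT or CAC).
Zfp534 finger: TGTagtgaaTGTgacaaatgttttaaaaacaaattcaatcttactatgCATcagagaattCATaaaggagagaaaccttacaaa
Zfp988 finger: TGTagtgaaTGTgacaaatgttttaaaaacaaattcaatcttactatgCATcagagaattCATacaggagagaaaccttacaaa
Zfp599 finger: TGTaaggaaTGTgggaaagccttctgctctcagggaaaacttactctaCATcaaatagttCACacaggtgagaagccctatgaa
Zfp786 finger: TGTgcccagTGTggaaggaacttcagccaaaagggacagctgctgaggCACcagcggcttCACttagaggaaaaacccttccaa
The Zfp534 and Zfp988 units were identical at 83 of 84 bases, while Zfp534 shared 52 bases with Zfp599 and 43 with Zfp786. Pairs as close as the first limit how far reads can be assigned to a single gene: 36 of 181 members with a transcript had at least 20% of their 50-base words in another gene, and values of such members are uncertain where counting split or dropped shared reads. The strand setting of the counting is not given in the sources used here, so reads of overlapping or antisense genes could also be included.

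The KRAB A box is shown because it separates the larger class of members from the rest, and because it can hold GGACT, the core of the sequence in which m6A is most often written. Capitals mark GGACT in 48 coding bases of the box.
Zfp534 KRAB box: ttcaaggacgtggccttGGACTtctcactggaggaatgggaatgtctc
Zfp988 KRAB box: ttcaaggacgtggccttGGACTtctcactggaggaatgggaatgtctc
Zfp599 KRAB box: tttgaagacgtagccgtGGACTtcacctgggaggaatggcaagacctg
Zfp786 KRAB box: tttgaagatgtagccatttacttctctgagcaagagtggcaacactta
The boxes of Zfp534 and Zfp988 were the same, Zfp599 held GGACT at the same place, and Zfp786 held none there. Zfp786 held GGACT elsewhere, at 5 places in its coding sequence, given here with the bases on either side because its message had the largest rise in Virma cKO.
Zfp786 site at coding bases 151 to 155: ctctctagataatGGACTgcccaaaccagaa
Zfp786 site at coding bases 376 to 380: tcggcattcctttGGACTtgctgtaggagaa
Zfp786 site at coding bases 1011 to 1015: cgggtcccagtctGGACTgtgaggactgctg
Zfp786 site at coding bases 1020 to 1024: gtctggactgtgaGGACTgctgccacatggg
Zfp786 site at coding bases 1300 to 1304: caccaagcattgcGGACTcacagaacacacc
Whether any of these adenosines carried the mark was not measured in these tables.

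A KRAB box, called where at least 6 of 9 spaced residues of the A box matched, was found in 114 of 181 members (63%), against 1.47% of all 21745 genes with a transcript. Members had a median of 10 fingers, 12 with a KRAB box and 7 without, with a range from 0 to 33, and 8 members had no match to the finger pattern. In 27 runs of neighbours, each with gene starts at most 500 kb apart, lay 125 members. Their coding sequences were longer than those of all genes tested (median 1698 against 1401 bases) and poorer in G and C (44.04% against 53.37%). GGACT was less dense in the members' transcripts than in all genes tested (0.68 against 1.04 per kb), and 81.2% of members against 89.6% of genes held it at least once.

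A set of 16 members on chromosome 4, in 2 adjoining runs, recurs in the results below, and 3 of their promoters are printed because the members moved together between cell types. Each window holds the 250 bases before the RefSeq start in GRCm38.p6, and capitals mark AGGAAGTG (the core of an Ets-type site) or CCAAT on either strand, the latter reading ATTGG on the other strand.
Zfp534, chr4:147702632-147702881, minus strand: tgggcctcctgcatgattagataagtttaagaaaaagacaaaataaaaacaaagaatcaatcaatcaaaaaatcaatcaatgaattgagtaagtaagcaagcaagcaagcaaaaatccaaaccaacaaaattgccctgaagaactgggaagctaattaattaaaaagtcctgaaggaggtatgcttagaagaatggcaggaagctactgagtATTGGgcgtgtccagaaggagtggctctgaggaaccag
Zfp988, chr4:147305354-147305603, plus strand: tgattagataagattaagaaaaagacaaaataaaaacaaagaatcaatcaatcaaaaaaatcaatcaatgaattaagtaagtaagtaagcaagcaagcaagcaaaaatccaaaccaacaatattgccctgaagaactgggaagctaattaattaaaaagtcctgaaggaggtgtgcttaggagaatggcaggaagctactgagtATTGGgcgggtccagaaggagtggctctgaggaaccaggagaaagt
Zfp987, chr4:146097062-146097311, plus strand: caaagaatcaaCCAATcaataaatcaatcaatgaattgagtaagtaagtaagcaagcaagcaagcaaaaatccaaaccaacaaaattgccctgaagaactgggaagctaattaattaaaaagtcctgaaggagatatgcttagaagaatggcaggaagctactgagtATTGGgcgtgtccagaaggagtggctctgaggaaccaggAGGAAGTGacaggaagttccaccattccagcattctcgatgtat
The Zfp534 and Zfp988 windows were identical at 231 of 250 bases (92.4%) in a global alignment with gaps, and Zfp987 matched Zfp988 at 204 (81.6%). Not all of the set were alike: Zfp933, Zfp982 and Zfp993 matched the others at 32.8% to 50%. Windows were held for 12 of the 16 members. AGGAAGTG was present in 40% of 15 chromosome 4 member windows, 9.39% of 181 member windows and 3.14% of all 32851 windows of this length. CCAAT was present in 73.3%, 54.1% and 33.8% of them. TATAAA was present in 4.42% of member windows and 12.4% of all windows, and CGGAAG, another Ets-type core, in 28.7% and 13.6%, although in 0% of the chromosome 4 windows. The table held windows for 150 of the 184 members, near-identical windows are not independent, and a match describes letters only.

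At 0 h in EPS, member levels ran from 0.372 to 384.83 CPM with a median of 11.6. Per kilobase of transcript, the highest was Zfp979 on chromosome 4 with 148.4 CPM per kb, followed by its neighbour Zfp990 with 64.0, by Zfp740 with 55.9, by Zfp706, a small zinc finger protein, with 41.2, and by Zfp568, a KRAB protein that represses a placental Igf2 transcript, with 40.9.

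After transcription arrest the members as a family were lost faster than the average message. Median levels in EPS were 54.5% of the 0 h level at 1 h and 36.3% at 2 h, while the median over all genes tested was 100% and 98.1%, since CPM are scaled within each library. At 2 h, 123 of 184 members (66.8%) were below 50% of their 0 h level in EPS, against 14.7% of all genes. In PrEdiff the median member was at 53.6% at 2 h, and 86 members (46.7%) were below 50%, against 7.49% of all genes. In the 3 h libraries the order of the states turned. The median member was at 54.8% in EPS, with 44% of members below 50%, against 12.4% of all genes. In PrEdiff it was at 48.9%, with 51.1% below 50%, against 10.2% of all genes.

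**Figure D1:**
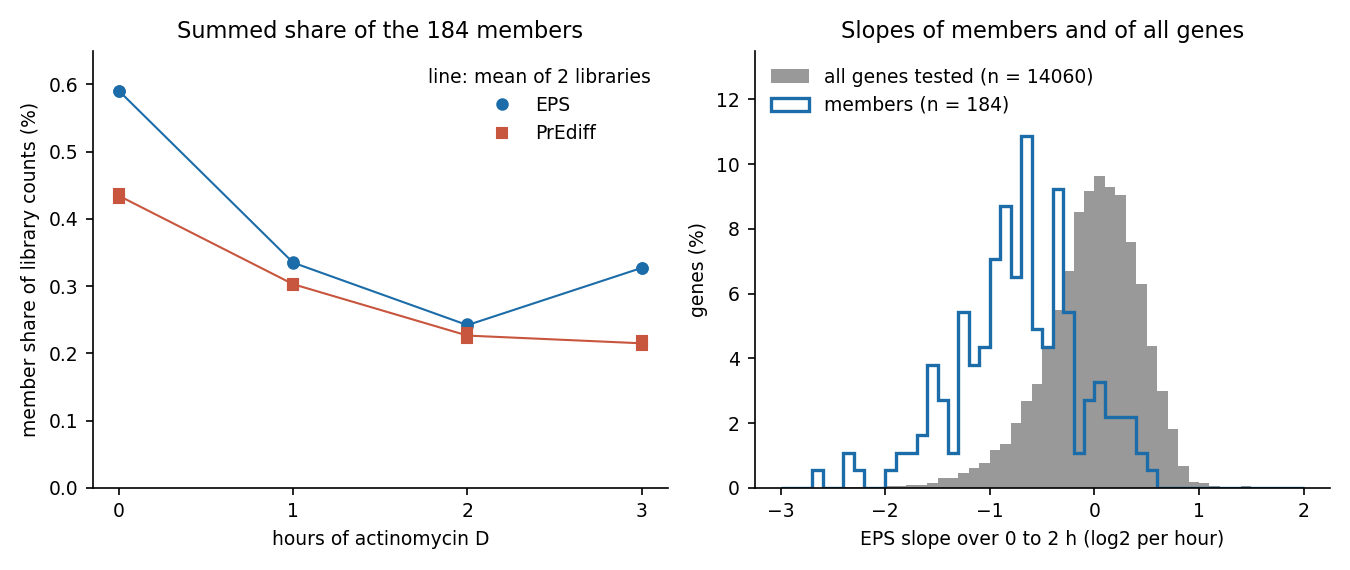
Left, summed share of library counts (%) held by the 184 members against hours of actinomycin D, with a point for each library and lines through means of 2. Right, the percentage of genes at each EPS slope over 0 to 2 h (log2 per hour) for the members and for all 14060 genes tested: the members' median was -0.70 and that of all genes 0.02.

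A slope was fitted for each gene as the log2 change per hour relative to the average message, by edgeR's quasi-likelihood test with Benjamini-Hochberg adjustment at 0.05, so a slope of 0 means loss at the average rate. Over 0 to 3 h, 98 members fell and 3 rose in EPS (median -0.32, all genes 0.06; 36.7% of all genes were called, 18.2% rising and 18.5% falling), and 106 fell and 4 rose in PrEdiff (median -0.35, all genes 0.02; 36.9% called, 20.3% rising and 16.6% falling). Without 3 h, 157 fell and 12 rose in EPS (median -0.70; 67.2% of all genes called, 31.8% falling), and 146 fell and 9 rose in PrEdiff (median -0.50; 59.6% called, 30.5% falling). Of the fallers without 3 h, 144 were shared, which is 91.7% of those in EPS and 98.6% of those in PrEdiff. Over all genes 3670 were shared, 82.1% of 4472 in EPS and 85.5% of 4294 in PrEdiff. Across the 184 members the EPS and PrEdiff slopes without 3 h had a rank correlation of 0.882, and across all 14060 genes 0.867, a description over genes of slopes that come from 1 table and share no library. The 156 Zfp genes with a number below 500 were similar in count, with 138 falling and 6 rising in EPS without 3 h.

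Members are given here by whether they have a KRAB box. In EPS without 3 h, 107 of 114 with a box fell (median -0.80) and 48 of 67 without one fell (median -0.53), while 1 and 11 rose. In PrEdiff without 3 h, 99 of 114 with a box fell (median -0.53) and 46 of 67 without one (median -0.43). With 3 h the classes lay closer: 64 of 114 (median -0.33) and 34 of 67 (median -0.28) fell in EPS, and 66 of 114 (median -0.37) and 40 of 67 (median -0.33) in PrEdiff. Slopes were also lower in members with more fingers (rank correlation -0.372 over members, which share sequence within runs of neighbours). Among runs of neighbours, all 8 members of a run on chromosome 7 that holds Zfp819 fell in EPS without 3 h (median -1.19), and 13 of 16 on chromosome 4 fell (median -0.42). With 3 h, 6 of the 8 (median -0.50) and 5 of the 16 (median -0.09) fell. The share of all genes falling in EPS was 31.8% without 3 h and 18.5% with it. In PrEdiff it was 30.5% and 16.6%. Without 3 h, 35.3% of all genes rose in EPS.

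Zfp599, a KRAB member of no described role here, had the lowest slope over 0 to 3 h in EPS among the members. Its EPS levels were 20.9 and 22.7 CPM at 0 h, 5.35 and 5.11 at 1 h, 1.94 and 1.498 at 2 h, and 1.75 and 1.32 at 3 h (slope -1.38 ± 0.17 SE, adjusted p = 1.55e-05). Its PrEdiff levels went from 11.04 and 12.4 CPM at 0 h to 2.21 and 2.56 at 1 h and 1.04 and 1.56 at 2 h (slope -1.08 ± 0.18, adjusted p = 0.000333). The 0 h libraries lay above all later ones in both states.
Zfp786 was low at the start, at 2.89 and 2.33 CPM in EPS, and went to 0.742 and 0.825 at 1 h and 0.125 and 0.250 at 2 h (slope over 0 to 3 h -1.30 ± 0.16, adjusted p = 1.48e-05). In PrEdiff it began at 0.480 and 0.679 CPM, where few counts lie behind each value.

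Among repressors of retroelements, Zfp819, a KRAB protein of pluripotent cells, had a steep slope in EPS, from 20.6 and 22.7 CPM at 0 h through 9.44 and 8.19 and then 3.50 and 3.75 to 2.43 and 2.13 at 3 h (-1.12 ± 0.07, adjusted p = 9.9e-09). The levels at every later hour lay below those of the hour before. Zfp568 did the opposite late in the course: 166 and 162 CPM at 0 h, 86.2 and 89.9 at 1 h, 82.6 and 80.0 at 2 h, and 170 and 166 in the 3 h libraries that stood apart. Its slope was 0.01 ± 0.11 with 3 h (adjusted p = 0.971) and -0.48 ± 0.06 without (adjusted p = 3.13e-06), and in PrEdiff without 3 h it was -0.33 ± 0.07 (adjusted p = 0.000345). All 5 members of this role fell in EPS without 3 h, and 2 of 5 fell with it, against 31.8% and 18.5% of all genes.

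The factors of RNA and translation were split. Zfp830, a splicing factor, went from 30.5 and 32.6 CPM at 0 h to 18.7 and 18.03, then 7.81 and 7.05, then 4.59 and 4.86 at 3 h in EPS (-0.95 ± 0.05, adjusted p = 2.93e-09) and had a slope of -0.83 ± 0.05 in PrEdiff (adjusted p = 8.49e-08). Zfp598, a ubiquitin ligase that acts on collided ribosomes, was at 104 and 104 CPM at 0 h, 116 and 117 at 1 h, 108 and 108 at 2 h, and 116 and 115 at 3 h. Its slopes were 0.03 ± 0.03 in EPS (adjusted p = 0.334) and -0.01 ± 0.03 in PrEdiff (adjusted p = 0.867), so no difference from the average message was detected.

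Without 3 h the 7 chromatin cofactors all fell in both states, with medians of -0.69 in EPS and -0.51 in PrEdiff (31.8% and 30.5% of all genes fell). With 3 h, 2 of 7 fell in EPS (median -0.14) and 6 of 7 in PrEdiff (median -0.33), against 18.5% and 16.6% of all genes. Zfp644, a partner of the H3K9 methyltransferases G9a and GLP, went from 57.0 and 53.4 CPM at 0 h to 25.02 and 23.6 at 1 h and 12.3 and 14.3 at 2 h in EPS (-1.01 ± 0.05 without 3 h, adjusted p = 3.4e-11). At 3 h it stood at 25.96 and 26.96 CPM, and the slope with 3 h was -0.38 ± 0.12 (adjusted p = 0.0187, and 0.106 or 0.0878 without either 0 h replicate).
Of the 9 developmental regulators, 7 fell and 1 rose in each state without 3 h. The shares over all genes were 31.8% falling and 35.3% rising in EPS, and 30.5% and 29.1% in PrEdiff. Zfp703, a corepressor of the same small family as Zfp503, went in PrEdiff from 41.6 and 45.8 CPM at 0 h to 26.3 and 26.8, 12.8 and 14.6, and 7.25 and 7.71 (-0.86 ± 0.04, adjusted p = 5.86e-09), an even decline in which no hours overlapped. Zfp979, the most abundant member, went from 386 and 384 CPM to 286 and 282 at 1 h and 229 and 230 at 2 h in EPS, and its slope was -0.34 ± 0.03 without 3 h (adjusted p = 1.13e-08). Its mean in the EPS 3 h libraries was 84.3% of the 0 h level.

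**Figure D2:**
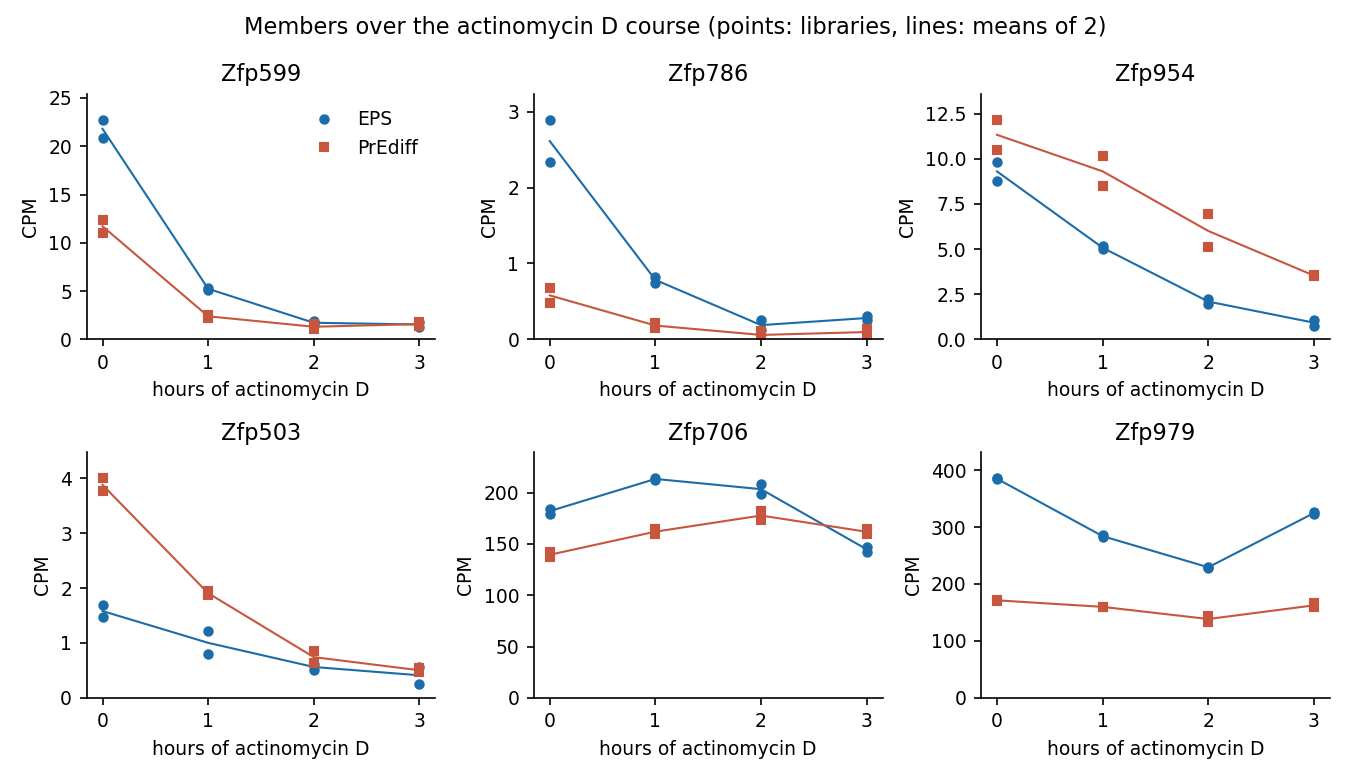
Levels (CPM) of 6 members against hours of actinomycin D in EPS and PrEdiff, with a point for each library and lines through means of 2. Zfp599 in EPS went from 20.9 and 22.7 CPM to 1.94 and 1.498 at 2 h, and Zfp979 in EPS from 386 and 384 to 229 and 230.

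How many slopes differed between the 2 states depended on the 3 h libraries. Over 0 to 3 h, 3 of 184 were called (1.27% of all genes were, 1.13% with a higher slope in PrEdiff and 0.142% with a lower one): Zfp954 and Zfp938 with a higher slope in PrEdiff and Zfp692 with a lower one. Zfp954, a KRAB member, went in EPS from 9.82 and 8.78 CPM to 4.98 and 5.17, 1.94 and 2.25, and 1.08 and 0.760. In PrEdiff it went from 12.2 and 10.5 CPM to 10.1 and 8.48, 6.92 and 5.09, and 3.51 and 3.56, and its levels lay above those of EPS at every hour. The slopes were -1.11 and -0.56, with a difference of 0.55 ± 0.10 (adjusted p = 0.00913).
Zfp938 was at 12.05 and 11.4 CPM at 0 h and 8.46 and 7.55 at 3 h in EPS, and at 9.39 and 8.10 and then 10.99 and 10.6 in PrEdiff (difference 0.30 ± 0.06, adjusted p = 0.0152). Zfp692 was at 30.7 and 30.1 CPM at 0 h and 52.7 and 50.1 at 3 h in EPS, and at 31.7 and 33.4 and then 32.8 and 33.3 in PrEdiff (difference -0.22 ± 0.05, adjusted p = 0.0225). Zfp692 was thus one of the few members whose message gained on the average in EPS. Without 3 h, 28 members had a higher slope in PrEdiff and 1 a lower one (6.59% of all genes called, 2.8% higher and 3.78% lower; member median 0.16, all genes -0.03), and both Zfp954 and Zfp938 were among the 28. Of the 36 members with at least 20% of their 50-base words in another gene, 14 were higher. Of the 145 members below that share, 13 were higher. Near copies are thus counted as separate members. Without the EPS 3 h libraries alone, 95 members had a higher slope in PrEdiff and 2 a lower one (20.3% and 9.08% of all genes). With scaling on ribosomal protein genes 0 members were called for a difference, and without single libraries the call of Zfp938 was lost in 2 cases (adjusted p = 0.0568 and 0.0633 without EPS 3 h replicate 2 or PrEdiff 0 h replicate 2) and that of Zfp692 in most (up to 0.0899).

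Between cell types, members were on the whole higher in the epiblast-side cells. They held 0.648% to 0.664% of counts in EPI-E and 0.386% to 0.393% in PrE-E, and 0.374% to 0.408% in embryoid EPI and 0.235% to 0.247% in embryoid VE. Of 178 tested in the sort, 65 fell and 24 rose in PrE-E (median log2 fold change -0.43, all genes -0.03; 57.7% of all genes were called, 29.5% falling and 28.3% rising). Of 162 tested in embryoids, 77 fell and 20 rose in VE (median -0.64, all genes -0.05; 72.5% called, 38% falling and 34.5% rising). The medians were the same with genes at 0 counts set to their bound. At 0 h, 113 of 184 were lower and 26 higher in PrEdiff than in EPS (median -0.43, all genes -0.05; 80.5% called, 42.9% falling), a comparison that uses the same 0 h libraries as the slopes. The Zfp genes with a number below 500 went the same way. In the sort 46 of 152 fell and 17 rose (median -0.30), and in VE 73 of 145 fell and 10 rose (median -0.72). At 0 h, 93 of 156 were lower and 30 higher in PrEdiff (median -0.39).

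With scaling on ribosomal protein genes, which moved the median of all genes in the sort from -0.03 to 0.23 and in embryoids from -0.05 to 0.27, the splits were 49 falling and 37 rising in PrE-E (22.4% and 35.6% of all genes) and 63 falling and 36 rising in VE (28.7% and 44.1%). Scaling by library totals moved the 0 h median of all genes from -0.05 to 0.13 and gave 94 lower and 42 higher (33.9% and 46.4% of all genes). Fewer members rose in PrE-E without EPI-E replicate 2, and fewer of all genes did (medians -0.40 and -0.01). The 12 feeder cell markers summed to 0.0216% to 0.0230% of counts in EPI-E and 0.0406% to 0.0418% in PrE-E, and their part in the result was not tested. A member that passed the low-count filter through its high group alone had to differ, so counts of tested members are no measure of how often members differ.

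Between the sort and the embryoids, 50 members fell in both, which is 76.9% of the 65 and 64.9% of the 77. Over all genes 2378 fell in both, 64.9% of 3662 and 55.7% of 4272. Of the risers 11 members were in both, 45.8% of 24 and 55% of 20, and 2579 of all genes, 73.5% of 3510 and 66.4% of 3882. Zfp516 fell in PrE-E and rose in VE, and Zfp706 did the reverse, although with scaling on ribosomal protein genes its change in VE was 0.12. Leaving out single libraries took each of these 4 calls but that of Zfp706 in VE past the threshold, with adjusted p up to 0.134 for Zfp516 and 0.199 for Zfp706 in the sort. Across 159 members tested in both, the fold changes had a rank correlation of 0.749, and across 10740 genes 0.764, in libraries of separate tables.

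**Figure D3:**
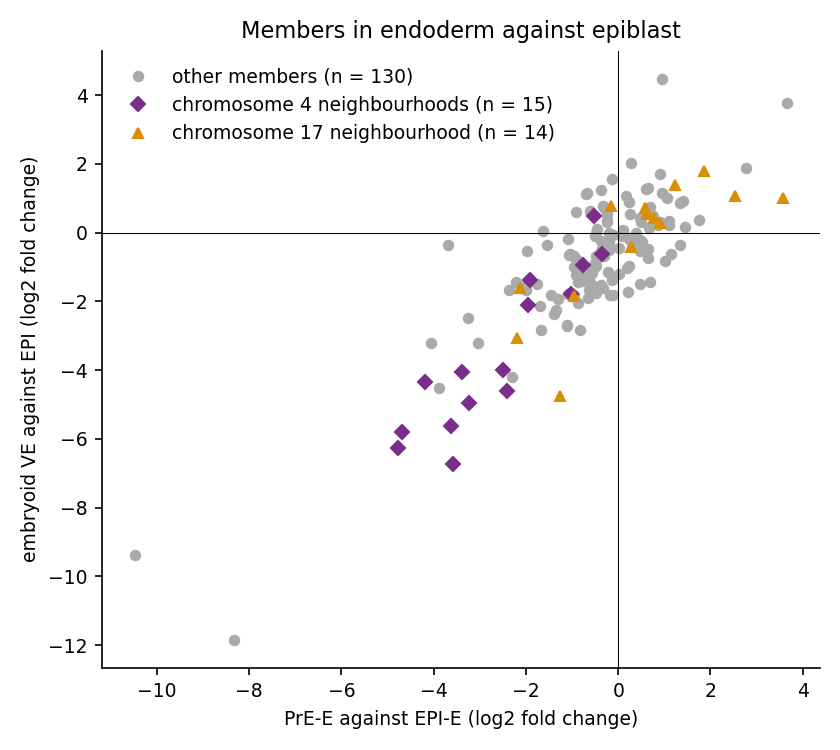
Log2 fold change of VE against EPI in embryoids against that of PrE-E against EPI-E for 159 members, with chromosome 4 members as diamonds and chromosome 17 members as triangles. The chromosome 4 members lie at or below 0 in the sort, and the lowest points, Zfp997 and Zfp998, come from groups at or near 0 counts, so their fitted values are no bound.

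The chromosome 4 members had the lowest medians of the runs of neighbours described here. In the sort 13 of 15 tested fell (median -2.51), and in embryoids 13 of 15 fell (median -4.05), against 29.5% and 38% of all genes. Of 15 with a transcript, 12 shared at least 20% of their 50-base words with another gene, so their values are not independent of each other.
Zfp600 was at 105 CPM in both EPI-E libraries and at 3.16 and 4.45 in PrE-E (-4.77 ± 0.19, adjusted p = 3.84e-10). Its 6 embryoid EPI libraries ran from 22.0 to 32.6 CPM and its VE libraries from 0.119 to 0.799 (-6.27 ± 0.36, adjusted p = 1.48e-12). The groups were far apart in both settings.
Zfp534, a KRAB member of the list of retroelement repressors, was at 58.1 and 52.6 CPM in EPI-E and 2.85 and 6.19 in PrE-E (-3.59 ± 0.29, adjusted p = 3.15e-07). In embryoids it ran from 25.6 to 43.4 CPM in EPI and from 0 to 0.478 in VE (-6.74 ± 0.34, adjusted p = 2.43e-13). Zfp988, whose promoter and finger units nearly match those of Zfp534, was at 90.0 and 85.7 CPM in EPI-E and 5.40 and 1.61 in PrE-E (-4.69 ± 0.35, adjusted p = 2.94e-07).
Zfp990 kept the highest level of these in the endoderm groups, at 540 and 586 CPM in EPI-E and 92.9 and 105 in PrE-E (-2.51 ± 0.08, adjusted p = 4.02e-11). It ran from 100 to 128 CPM in embryoid EPI and from 5.04 to 8.81 in VE (-4.002 ± 0.14, adjusted p = 3.24e-16). At 0 h, when PrEdiff cells had not been sorted, 15 of the 16 were lower than in EPS (median -0.99), against 42.9% of all genes. Zfp600 was among the 15, at 59.0 and 58.5 CPM in EPS and 12.9 and 11.1 in PrEdiff (-2.30 ± 0.07).

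**Figure D4:**
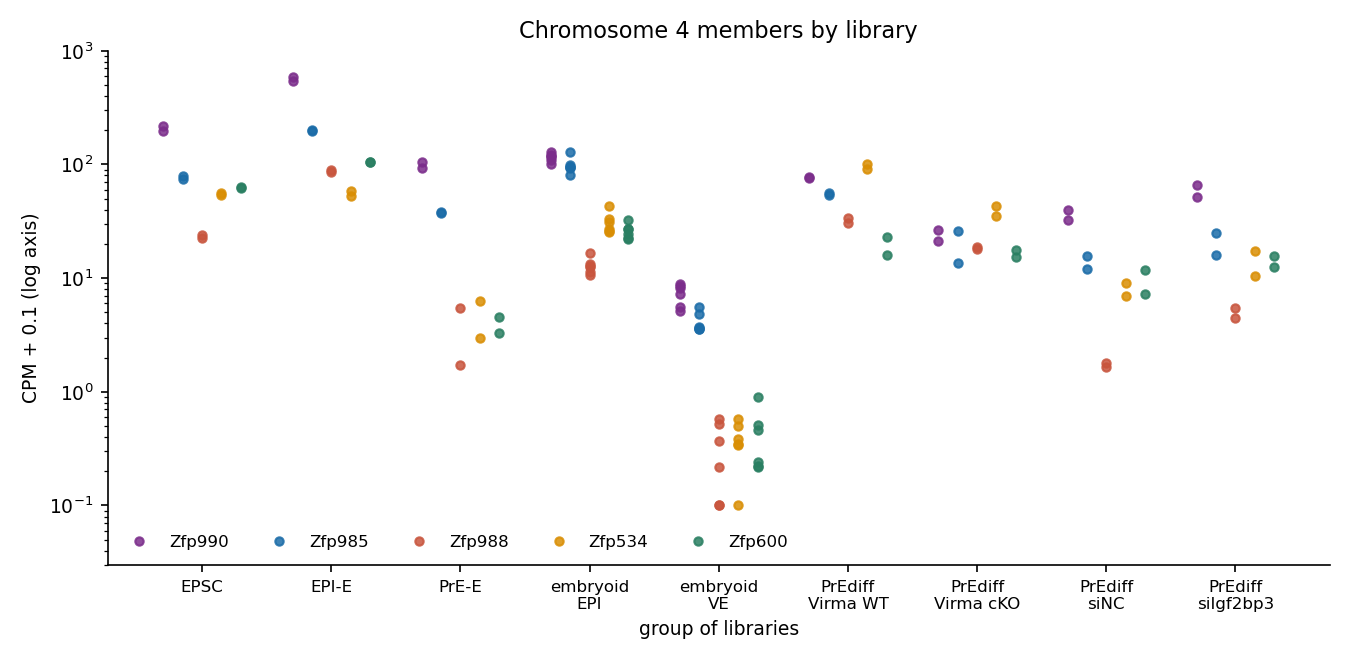
Levels (CPM + 0.1, log axis) of 5 chromosome 4 members, with a point for each library, in 9 groups of libraries; each table was scaled on its own. Zfp990 is at 540 and 586 CPM in EPI-E and between 5.04 and 8.81 in embryoid VE.

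A pair of members was lost from the endoderm counts. Zfp998 was at 34.8 and 38.9 CPM in EPI-E and held 3 counts over both PrE-E libraries, a ratio of 348.4 with an exact 95% counting interval from 118.9 to 1692. In embryoids it ran from 31.7 to 70.9 CPM in EPI and had 0 counts in all 6 VE libraries, at least 130.5-fold lower against a floor of 3 counts per library. Zfp997 was at 13.6 and 11.5 CPM in EPI-E and 0 in both PrE-E libraries, at least 59.0-fold lower, and at least 23.6-fold lower in embryoid VE. Intervals and floors cover counting error alone.

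The run of 14 members on chromosome 17 was split in both comparisons, with 6 rising and 3 falling in PrE-E (median 0.61) and 5 rising and 4 falling in VE (median 0.49). The shares over all genes were 28.3% rising and 29.5% falling in PrE-E, and 34.5% rising and 38% falling in VE. Zfp948 was at 49.7 and 56.7 CPM in EPI-E and 204 and 180 in PrE-E (1.85 ± 0.11, adjusted p = 1.92e-08). In embryoids it ran from 25.03 to 42.6 CPM in EPI and from 98.5 to 121 in VE (1.80 ± 0.12, adjusted p = 3.31e-11), and the groups did not overlap. It was also higher in unsorted PrEdiff than in EPS at 0 h, at 61.97 and 58.4 against 30.1 and 30.6 CPM.
On chromosome 7, the 8 members of the run with Zfp819 had 6 falling in PrE-E (median -1.53) and 8 lower in PrEdiff at 0 h (median -1.72), against 29.5% and 42.9% of all genes. Zfp819 was at 8.48 and 12.02 CPM in EPI-E and 0 and 1.16 in PrE-E (-4.06 ± 0.89, adjusted p = 0.00174). Its embryoid levels ran from 9.59 to 26.02 CPM in EPI and from 0.542 to 3.72 in VE (-3.20 ± 0.41, adjusted p = 4.92e-07).

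Members higher in endoderm included developmental regulators and genes of no described role here. Zfp800, a regulator of pancreatic endocrine development, was at 5.37 and 4.03 CPM in EPI-E and 30.9 and 33.8 in PrE-E (2.78 ± 0.27, adjusted p = 1.72e-06), and ran from 3.37 to 8.08 CPM in embryoid EPI and from 15.4 to 24.0 in VE (1.88 ± 0.26, adjusted p = 1.26e-06). The groups did not overlap in either setting. Zfp697 was at 0.530 and 0.533 CPM in EPI-E and 5.78 and 7.86 in PrE-E (3.66 ± 0.70, adjusted p = 0.000608).
Zfp865 had the largest rise in VE among those named: its EPI libraries ran from 1.36 to 6.02 CPM and its VE libraries from 64.2 to 90.9 (4.47 ± 0.24, adjusted p = 6.31e-13). In the sort it was at 5.50 and 6.01 CPM in EPI-E and 12.2 and 10.1 in PrE-E (0.95 ± 0.38, adjusted p = 0.0483). In unsorted PrEdiff it was lower than in EPS, at 5.33 and 5.43 against 7.87 and 7.09 CPM (-0.47 ± 0.13, adjusted p = 0.00052).

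Among the retroelement and imprint repressors the direction was mixed. Zfp809, which binds the primer binding site of retroviral DNA, was at 53.0 and 43.0 CPM in EPI-E and 121 and 141 in PrE-E (1.45 ± 0.14, adjusted p = 1.24e-06), but ran from 34.4 to 52.3 CPM in embryoid EPI and from 39.5 to 49.9 in VE (0.17 ± 0.13, adjusted p = 0.266). Zfp568 was at 247 and 251 CPM in EPI-E and 184 and 175 in PrE-E (-0.47 ± 0.08, adjusted p = 0.000172), and its embryoid groups overlapped. Zfp932 fell in both comparisons (-0.77 ± 0.22 and -1.41 ± 0.27, adjusted p = 0.00789 and 8.54e-05), the former not without EPI-E replicate 2 (adjusted p = 0.0769).
Of the RNA factors, Zfp622, which acts in maturation of the large ribosomal subunit, rose in PrE-E (118 and 113 against 168 and 152 CPM; 0.47 ± 0.10) and in VE (0.43 ± 0.15, adjusted p = 0.0137). Zfp638, a nuclear RNA- and DNA-binding protein, fell from 350 and 357 to 217 and 204 CPM in the sort (-0.75 ± 0.07, adjusted p = 1.07e-06) and fell in VE (-1.07 ± 0.13, adjusted p = 3.93e-07). Of the 7 chromatin cofactors, 2 rose and 3 fell in the sort, against 28.3% and 29.5% of all genes. Zfp618 was at 13.2 and 14.5 CPM in EPI-E and 0.694 and 1.42 in PrE-E (-3.68 ± 0.50, adjusted p = 3.74e-05), Zfp827 fell by 2.75 on the log2 scale, and Zfp592 rose (0.91 ± 0.18, adjusted p = 0.000957). The other riser, Zfp711, was at 0.464 and 0.304 CPM in EPI-E and 3.01 and 3.99 in PrE-E (3.15 ± 0.97, adjusted p = 0.0142; 0.0741 without EPI-E replicate 2 and 0.0744 without PrE-E replicate 2).
Zfp703 was not of this pattern: 1.66 and 1.601 CPM in EPS at 0 h and 41.6 and 45.8 in PrEdiff (4.74 ± 0.11), yet between 0.304 and 0.902 CPM in all 4 sorted libraries.

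The messages of most proteins through which KRAB members act were also lower in the endoderm groups. Of 18 genes of the KRAB corepressor list, 17 fell and 1 (Chd3) rose in PrE-E, 16 fell and 1 (Chd4) rose in VE, and 17 were lower in PrEdiff at 0 h (29.5%, 38% and 42.9% of all genes fell or were lower). The list also holds Zfp57, a Zfp gene with a number below 500, so it is not made of corepressors alone. Trim28 had mean levels of 629.23 CPM in EPI-E and 164.88 in PrE-E (-1.93 ± 0.09), and 315.94 and 220.58 in embryoid EPI and VE (-0.52 ± 0.06). Setdb1 fell in both (-1.02 ± 0.12 and -0.99 ± 0.16), and so did Smarcad1, a remodeller bound by Trim28 (-1.51 ± 0.08 and -1.58 ± 0.09).

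In Virma cKO members changed in both directions. Of 179 tested, 17 rose and 22 fell in Virma cKO (median 0.03, all genes 0.02; 33.2% of all genes were called, 15.1% rising and 18% falling), so the share of members called was below the background. The split depended on the scaling: library totals, which moved the median of all genes to 0.20, gave 29 rising and 16 falling members (22.9% and 11.4% of all genes), and ribosomal protein genes, which moved it to 0.43, gave 51 and 11 (37.1% and 5.72% of all genes). Fewer members rose without cKO replicate 2 or without WT replicate 2, and fewer of all genes did. The medians were then -0.02 and -0.03 for members, and 0.01 and 0.05 for all genes. Of the 17 risers 16, and of the 22 fallers 20, were among the 157 members with a falling EPS slope without 3 h. These shares, 94.1% and 90.9%, were near the 85.3% of all 184 members with such a slope (31.8% of all genes). Across 179 members the slope and the Virma change had a rank correlation of 0.038, and across all 12587 genes -0.099. Of 153 Zfp genes with a number below 500 tested in Virma cKO, 25 rose and 12 fell (median 0.15).

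Feeder cell, endoderm and epiblast markers moved with this comparison. All 12 feeder markers rose in Virma cKO, from 0.101% to 0.102% of counts in WT to 0.279% to 0.284%, and all 8 primitive endoderm markers fell, from 0.312% to 0.325% down to 0.0232% to 0.0242%. Of 7 epiblast markers 4 fell (median -0.72), and their sum went from 0.0838% to 0.0879% of counts in WT down to 0.0572% to 0.0586%. Of the 18 genes of the KRAB corepressor list, 12 fell and 2 rose (median -0.27), against 18% and 15.1% of all genes. No feeder or endoderm marker was at 0 in both libraries of a group. Their part in the members' changes was not tested. Of the fallers in Virma cKO, 11 (50% of 22, 16.9% of 65) were also lower in PrE-E than in EPI-E, and of the risers 6 (35.3% of 17, 9.23% of 65) were. Over all genes, 818 of 2364 fallers (34.6%) and 671 of 1984 risers (33.8%) were lower in PrE-E, so the members' risers were near that share.

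Zfp786 had the largest rise, from 0.401 and 0.349 CPM in WT to 3.94 and 3.37 in cKO (3.25 ± 0.94, adjusted p = 0.00674); the groups did not overlap, but the call was lost without either cKO replicate (adjusted p = 0.108 and 0.0537). Zfp746 was at 9.83 and 3.83 CPM in WT and 21.4 and 17.4 in cKO (1.51 ± 0.33, adjusted p = 0.000458). Zfp764 was at 3.41 and 1.57 and then 6.95 and 9.69 CPM (1.75 ± 0.49, adjusted p = 0.00578), a call lost without WT replicate 2 (adjusted p = 0.051) or cKO replicate 2 (adjusted p = 0.108).
Of the 7 chromatin cofactors, 3 rose, against 15.1% of all genes. Zfp644 went from 94.2 and 88.6 to 143 and 133 CPM (0.59 ± 0.10, adjusted p = 1.31e-05). Zfp592, a partner of the ZMYND8 complex, went from 29.1 and 32.0 to 51.9 and 45.7 CPM (0.68 ± 0.16, adjusted p = 0.00143), and Zfp618 from 15.3 and 8.54 to 21.9 and 23.6 (0.94 ± 0.26, adjusted p = 0.0056; 0.143 without WT replicate 2). In each of these the groups did not overlap.

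The fallers were led by chromosome 4 members: 8 of 16 fell (median -0.41), against 18% of all genes. Zfp990 went from 75.7 and 77.1 to 26.3 and 21.0 CPM (-1.69 ± 0.16, adjusted p = 1.01e-10). Zfp985 went from 55.4 and 53.3 to 26.1 and 13.4 CPM (-1.46 ± 0.20, adjusted p = 6.75e-07), and Zfp534 from 101 and 91.2 to 43.1 and 35.2 (-1.29 ± 0.13, adjusted p = 1.6e-09). Both cKO libraries lay below both WT libraries in all of these.
Outside chromosome 4, Zfp599, the member with the lowest EPS slope over 0 to 3 h, went from 41.1 and 50.7 to 22.3 and 22.1 CPM (-1.05 ± 0.18, adjusted p = 1.6e-05). Zfp568 was at 208 and 189 CPM in WT and 207 and 199 in cKO (0.04 ± 0.08, adjusted p = 0.792). By class, 5 of 113 members with a KRAB box rose and 17 fell (median -0.12), while 12 of 64 without one rose and 5 fell (median 0.17). The shares over all genes were 15.1% rising and 18% falling. Outside the chromosome 4 runs, 5 of 98 members with a KRAB box rose and 9 fell (median 0.02). The Virma change was higher at higher coding GC content among members (rank correlation 0.44 over 177, against 0.13 over all genes).

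**Figure D5:**
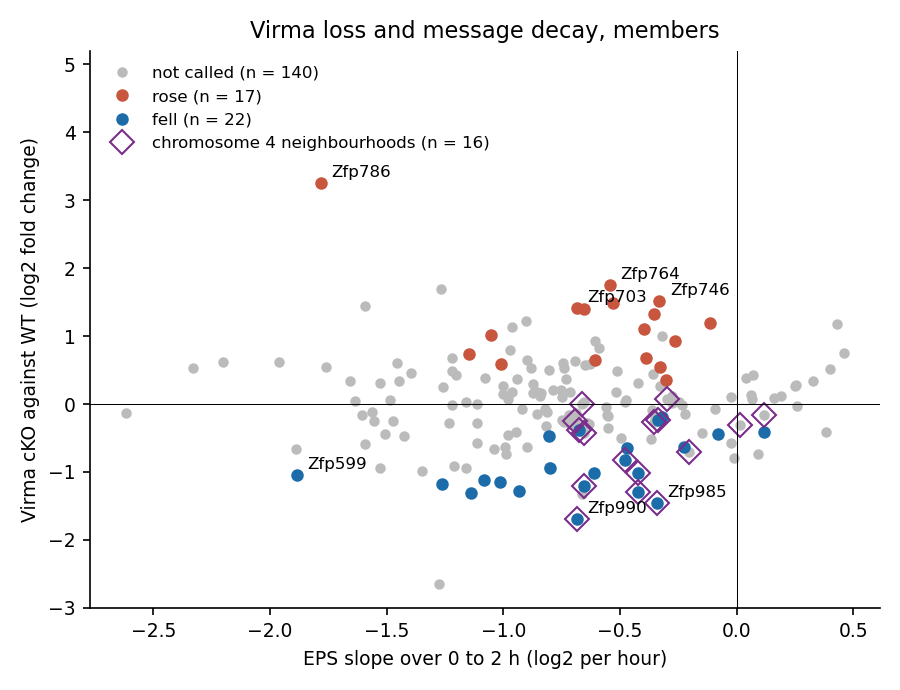
Log2 fold change in Virma cKO against WT plotted against the EPS slope over 0 to 2 h (log2 per hour) for 179 members, coloured by call, with open diamonds around chromosome 4 members. The 17 members that rose and the 22 that fell both lie mostly at slopes below 0, as did 163 of all 184 members.

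In the libraries labelled Mettl3 cKO, edgeR's quasi-likelihood test called 0 members as rising and 1 as falling of 181 tested (3.95% of all genes were called, 2.51% rising and 1.44% falling). At an unadjusted p below 0.05 there were 8 in each direction, and DESeq2 called 0 in both. More members fell without cKO replicate 1 or without WT replicate 1, while fewer of all genes did. The medians were then -0.10 and -0.08 for members, and -0.001 and 0.001 for all genes. The single call was Zfp710, at 122 and 116 CPM in WT and 96.3 and 102 in cKO (-0.27 ± 0.08, adjusted p = 0.0417), and the groups did not overlap. It was lost when any of the 4 libraries was left out (adjusted p from 0.0554 to 0.315). In Virma cKO the same gene rose, from 59.1 and 59.5 to 74.0 and 78.2 CPM (0.36, adjusted p = 0.0242). Feeder markers rose here too, 12 of 12, from 0.250% to 0.263% of counts up to 0.359% to 0.379%, and 7 of 8 primitive endoderm markers fell, from 0.541% to 0.550% down to 0.367% to 0.375%, and their part in the result was not tested.
The difference between the responses was tested directly in 183 members: 13 were higher and 11 lower in the Virma response than in the Mettl3 response (19.7% of all genes called, 8.74% higher and 10.9% lower). Zfp786 (3.14 ± 0.87, adjusted p = 0.0154), Zfp746 (1.56 ± 0.43, adjusted p = 0.0153) and Zfp644 (0.54 ± 0.14, adjusted p = 0.00896) were among the former, and Zfp990 (-1.59 ± 0.21, adjusted p = 2.42e-05) and Zfp534 (-1.11 ± 0.21, adjusted p = 0.000899) among the latter. In the Mettl3 libraries Zfp990 was at 39.4 and 50.9 CPM in WT and 46.4 and 39.3 in cKO, and the groups overlapped. Scaling on ribosomal protein genes gave 37 higher and 3 lower, 20.2% and 1.64% of members against 28.4% and 3.01% of all genes. Fewer members were higher without Mettl3 WT replicate 1 or either Mettl3 cKO replicate. Fewer were lower without replicate 1 of Mettl3 WT or Mettl3 cKO. In each of these fits fewer of all genes were called in both directions. The call of Zfp786 was lost without any of the 4 Mettl3 libraries (adjusted p from 0.0641 to 0.0801), and those of Zfp746 and Zfp644 without some single libraries (up to 0.0890 and 0.106).

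In the libraries labelled siIgf2bp3, 11 members rose and 1 fell of 175 tested (median 0.22, all genes 0.01; 7.32% of all genes were called, 2.79% rising and 4.52% falling). The 152 tested Zfp genes with a number below 500 went the same way, with 8 rising and 0 falling (median 0.18). Members with a KRAB box had a median of 0.39 (83 above and 25 below 0, with 7 rising of 108), and those without one a median of -0.03 (28 above and 36 below 0, with 2 rising and 1 falling of 64). The counts rested on single libraries, for members and for all genes. Without siIgf2bp3 replicate 1 there were 1 riser and 0 fallers (0.247% and 1.57% of all genes; member median 0.12). Without siNC replicate 2 there were 50 and 17 (17.9% and 19.1% of all genes), without siNC replicate 1 there were 20 and 5 (8.3% and 10.1%), and without siIgf2bp3 replicate 2 there were 9 and 2 (0.431% and 1.95%). Of the 11 risers, 10 were lower in PrE-E than in EPI-E (90.9% of 11, 15.4% of 65), and of all 361 genes that rose, 260 were (72% of 361, 7.1% of 3662). The 8 primitive endoderm markers all fell here, from 0.315% to 0.356% of counts in siNC to 0.167% in both siIgf2bp3 libraries, and feeder markers were at 0.0656% to 0.0845% and 0.0751% to 0.0753%. Of 7 epiblast markers 3 rose, and their sum was 0.199% to 0.218% of counts in siNC and 0.240% to 0.245% in siIgf2bp3. Their part in the result was not tested. The change was lower at higher coding GC content, with a rank correlation of -0.622 over 172 members and -0.464 over all 12576 genes.

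The 4 members named for the largest rises, Zfp988, Zfp825, Zfp936 and Zfp945, all have a KRAB box. Zfp988 went from 1.56 and 1.70 CPM in siNC to 5.38 and 4.38 (1.57 ± 0.36, adjusted p = 0.0297), and 4 of 15 chromosome 4 members rose (median 0.57), against 2.79% of all genes. Zfp825 went from 2.41 and 2.67 to 5.87 and 6.34 CPM (1.26 ± 0.30, adjusted p = 0.0352), and Zfp945 from 9.51 and 10.1 to 19.5 and 18.8 (0.97 ± 0.18, adjusted p = 0.0122). All these groups were separate, and each call was lost without siIgf2bp3 replicate 1 (adjusted p = 0.256, 0.148 and 0.0778).
Among the RNA factors, Zfp638 rose from 71.2 and 96.2 to 144 and 120 CPM (0.66 ± 0.15, adjusted p = 0.0286), and Zfp622 was the single faller, from 245 and 174 to 120 and 137 CPM (-0.70 ± 0.15, adjusted p = 0.0223). Without siIgf2bp3 replicate 1 neither was called (adjusted p = 0.246 and 0.0907). Zfp990 and Zfp988, which fell in Virma cKO, rose in siIgf2bp3, as did Zfp979 and Zfp638, so 4 members were in both lists (18.2% of 22, 36.4% of 11). Over all genes 129 were in both lists, 5.46% of 2364 and 35.7% of 361, so the share of the siIgf2bp3 risers was near that of all genes. Of the 4 members, Zfp638 was at 0.21 in Virma cKO with scaling on ribosomal protein genes.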

How the data were processed

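RNA was extracted with TRIzol and total RNA libraries were made with SMARTer Stranded and VAHTS kits and sequenced on a NovaSeq, per the labels' protocols; which kit made which library is not given in the sources used here. The authors deposited whole-number counts per gene in 7 tables, and the submitters' processing notes name FastQC 0.12.1, Trim Galore, STAR 2.7.11b, Subread, DESeq2 and the build mm39, with no order or settings. The deposited counts were used as they stand, with 0 columns of no sample.

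The members and gene lists were chosen with earlier results of these data known. Counts were tested in R 4.3.3 with edgeR 4.0.16 (limma 3.58.1): its low-count filter (minimum count 10, total 15), TMM scaling, a robust quasi-likelihood fit with prior count 0.125 for fold changes, and Benjamini-Hochberg adjustment over all genes tested. Each comparison used its own table, except that the Virma and Mettl3 tables were joined to test the difference between responses. CPM use TMM-scaled totals within a table. The fits were tested on simulated counts. Named by rule were up to 4 members each way with a mean of at least 2 CPM and groups that do not overlap, plus members of known role; not all are printed, and Zfp599, Zfp979 and Zfp988 in Virma cKO, the subgroups by chromosome and the sequences were chosen after values were seen. Sequence features came from GENCODE M21 transcripts (GRCm38) for 181 members, promoters from RefSeq. Replicate pairs in the transcription arrest table differed by 1.19 to 1.30 times counting noise (chi-square per degree of freedom), against 1.58 to 20.0 in the other tables. Alternatives were RLE and library-total scaling, scaling on ribosomal protein genes, 2 filters, DESeq2 1.42.0, a replicate block, no 3 h, and leaving out each library.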

Additional observations from a re-analysis of the deposited data

Results flagged for a closer look

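In embryoids, the levels of members in groups of 6 libraries were checked for a single library far from the rest, and 3 of 38 groups had one; chance gives about 1 in 20. They were the highest EPI library of Zfp598 (9.38 CPM), the highest EPI library of Zfp622 (117 CPM) and the lowest VE library of Zfp706 (509 CPM).

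The loss after transcription arrest differed between PrEdiff and EPS for Zfp954 (0.55 log2 per hour), Zfp938 (0.30) and Zfp692 (-0.22), by a test of the difference itself.

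The responses to the libraries labelled Virma cKO and Mettl3 cKO differed, by the joint fit, for 14 named members. The Virma response was higher for Zfp786 (3.14 on the log2 scale), Zfp839 (1.79), Zfp628 (1.57), Zfp746 (1.56), the corepressor Zfp703 (1.14), Zfp592 (0.74) and Zfp644 (0.54). It was lower for the chromosome 4 members Zfp990 (-1.59), Zfp985 (-1.35) and Zfp534 (-1.11), and for Zfp971 (-1.31), Zfp871 (-1.13), Zfp706 (-0.51) and Zfp704 (-0.44). Since Mettl3 mRNA was not lower in the libraries labelled Mettl3 cKO, what these differences compare rests on the labels.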

How the results depend on the processing

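RLE scaling and a filter at 1 CPM moved no count of members by over 1.5 times. Of counts over all libraries, library totals gave 29 rising in Virma cKO and 42 higher at 0 h in PrEdiff (22.9% and 46.4% of all genes). They gave 1 rising EPS slope and 0 rising PrEdiff slopes (3.37% and 3.77% of all genes). They also gave 4 higher slope differences and 0 falling in Mettl3 cKO (0.807% and 1.35% of all genes). Ribosomal protein scaling gave 51 rising and 11 falling in Virma cKO (37.1% and 5.72% of all genes). It gave 37 higher and 3 lower in the Virma response (28.4% and 3.01% of all genes). In PrE-E 37 rose and in VE 36 (35.6% and 44.1% of all genes). It gave 0 rising slopes in EPS and in PrEdiff (0.142% and 0.0142% of all genes), and 166 falling in PrEdiff (64.9%). It gave 0 slope differences either way (0.0142% of all genes higher and 0% lower). It moved the median slope of all genes from 0.06 to -0.17 in EPS and from 0.02 to -0.36 in PrEdiff. Without a filter, 20 rose and 7 fell in siIgf2bp3 (3.84% and 6.05% of all genes). In Mettl3 cKO 3 fell, and 0 slopes were lower in PrEdiff (1.58% and 0.0329% of all genes). DESeq2 gave 0 falling in Mettl3 cKO and 5 higher slope differences. Without 3 h, 12 EPS slopes rose and 157 fell, 9 PrEdiff slopes rose, and 28 differences were higher. Over all genes these were 35.3%, 31.8%, 29.1% and 2.8%. Without EPS 3 h alone the member counts were 6, 157, 10 and 95, with 2 lower. Over all genes they were 29.6%, 32.5%, 31% and 20.3%, with 9.08% lower. The cause was not tested.

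Replicate numbers did not pair the samples (correlation of deviations from -0.229 to 0.026). With a replicate block, 21 rose and 5 fell in siIgf2bp3 (4.47% and 6.88% of all genes). With it 0 fell in Mettl3 cKO and 0 slopes were lower in PrEdiff (0.892% and 0.0283% of all genes). Crossed pairing, added after seeing the data, gave 1 rising and 9 falling in Mettl3 cKO (5.61% and 5.22% of all genes).

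Leaving out single libraries gave these ranges, falling and then rising: 72 to 79 and 17 to 24 in VE, 52 to 64 and 13 to 19 in PrE-E, 108 to 114 and 20 to 26 at 0 h, 71 to 110 and 1 to 4 for EPS slopes, 71 to 114 and 1 to 5 for PrEdiff slopes, 0 to 1 and 1 to 3 for their difference, 20 to 22 and 11 to 19 in Virma cKO, 0 to 6 and 0 to 0 in Mettl3 cKO, 6 to 15 and 8 to 19 for the Virma against the Mettl3 response, and 0 to 17 and 1 to 50 in siIgf2bp3. Signs turned with ribosomal protein scaling for Zfp638 in Virma cKO (0.21), Zfp830 (0.036) and Zfp706 (0.12) in VE, Zfp946 (-0.023) and Zfp978 (-0.054) in EPS slopes, and Zfp938 (-0.26), Zfp787 (-0.13), Zfp992 (-0.19) and Zfp931 (-0.20) in PrEdiff slopes. They also turned for the PrEdiff slope of Zfp938 with library totals (-0.029), and for the EPS slopes of Zfp946 without 3 h (-0.013) or EPS 3 h (-0.049) and of Zfp978 without EPS 3 h (-0.023).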

Other observations

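Members in Virma cKO are given here by whether the KRAB box holds GGACT, a grouping chosen after values were seen and given with no test. Of the 33 members with GGACT in the box, 12 fell (median log2 fold change -0.35; 18% of all genes fell), among them Zfp534, Zfp988 and Zfp599. Of 80 tested members whose box lacked it, 5 rose and 5 fell (median 0.08). Outside chromosome 4, 5 of 22 with it fell (median -0.27), a share near that of all genes, and 5 rose and 4 fell of 76 without it (median 0.11). The box sequences of neighbours are near copies, so these members are not independent, and no methylation was measured in these tables.

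The members' share of counts and their scaled level moved apart in Virma cKO: the share was 0.443% to 0.446% in WT and 0.459% to 0.473% in cKO, while their summed level was 4708 to 4756 CPM in WT and 4376 to 4397 in cKO after TMM scaling.

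Untreated EPSC held 0.592% to 0.599% of counts in members, near the 0.590% and 0.591% of EPS at 0 h in another table, while feeder markers summed to 0.178% in EPSC and 0.0256% to 0.0261% in EPS at 0 h.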
